A study of Mus musculus with 2 samples.

Results

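The circadian clock genes Arntl, Clock, Per1, Per2, Per3, Cry1, Cry2, Nr1d1, Nr1d2 and Dbp were examined in 2 cultures of a mouse mesangial line. The 10 genes were chosen by symbol, and each had 1 row among the 54713 rows of the deposited gene table. SV40 MES13 is a kidney line that the labels call mesangial. The Lv_AI662270 culture had been infected with a lentivirus that carries the long noncoding RNA AI662270, and the Lv_NC culture with a control virus. Both had been selected with puromycin at 0.5 mg/ml, were kept at 0.25 mg/ml in medium with 10% serum, and are otherwise labelled untreated. The labels used here name no synchronising step and no hour of harvest, and do not say whether a line is a pool or 1 clone. Their treatment text also names Sox9 as the gene checked for stable expression, so the titles and genotypes were followed. Each culture gave 1 library, so every ratio below describes 2 libraries, has no replicate check and carries no p-value. The library labelled Lv_AI662270 held 15062482 counts and the library labelled Lv_NC 15727023 counts. The control column is headed Lv_Con in the deposited table and was matched to Lv_NC as the single control sample.

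The mammalian clock is a transcriptional feedback loop that runs in most cells, kidney cells included. The proteins of Arntl (BMAL1) and Clock bind E-box sequences together and activate the Per and Cry genes, whose products return to block them. A second loop runs through the REV-ERB receptors, encoded by Nr1d1 and Nr1d2, which repress Arntl and Clock at response elements that ROR receptors share and activate from. Dbp and its relatives are output factors that activate genes with D-box sequences, and NFIL3 represses at the same sequences. In culture, cells drift apart in phase, and a change of medium or serum can set them in step for some days.

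Promoter windows of some genes are shown first, picked from those that held matches to sequences through which these loops are known to act. The windows run from 250 bases before to 50 bases after an annotated start, are from RefSeq on build GRCm38.p6, and were found for 9 of the 10 genes, all but Per2. Capitals mark matches on either strand to the E-box CACGTG, the E'-box CACGTT, the D-box TTATGTAA or TTACGTAA, the core of the REV-ERB and ROR element TAGGTCA or TGGGTCA, and the cyclic AMP element TGACGTCA or its first part TGACG, which lies inside the full element on both strands. Arntl and Nfil3 are shown for the REV-ERB and ROR core, Nr1d1, Cry1 and Ciart for E-boxes or E'-boxes, and Per3 for its D-boxes.
Arntl, chr7:113207261-113207560, plus strand: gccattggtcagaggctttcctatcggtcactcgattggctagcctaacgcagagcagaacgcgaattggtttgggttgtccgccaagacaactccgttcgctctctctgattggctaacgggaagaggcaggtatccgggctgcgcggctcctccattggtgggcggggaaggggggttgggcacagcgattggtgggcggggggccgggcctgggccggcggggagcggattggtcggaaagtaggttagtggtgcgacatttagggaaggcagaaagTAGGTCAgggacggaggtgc
Nfil3, chr13:52980990-52981289, minus strand: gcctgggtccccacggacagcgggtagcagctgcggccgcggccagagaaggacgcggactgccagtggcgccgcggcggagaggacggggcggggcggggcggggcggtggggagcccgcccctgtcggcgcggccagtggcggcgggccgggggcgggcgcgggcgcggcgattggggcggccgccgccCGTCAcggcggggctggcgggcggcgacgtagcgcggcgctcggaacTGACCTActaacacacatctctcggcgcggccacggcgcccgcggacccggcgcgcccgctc
Nr1d1, chr11:98775328-98775627, minus strand: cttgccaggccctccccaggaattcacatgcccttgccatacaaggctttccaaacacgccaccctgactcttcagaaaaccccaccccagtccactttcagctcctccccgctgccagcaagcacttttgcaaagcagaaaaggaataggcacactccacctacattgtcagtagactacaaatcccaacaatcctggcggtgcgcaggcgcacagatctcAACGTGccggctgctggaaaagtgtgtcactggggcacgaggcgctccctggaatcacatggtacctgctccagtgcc
Cry1, chr10:85185005-85185304, minus strand: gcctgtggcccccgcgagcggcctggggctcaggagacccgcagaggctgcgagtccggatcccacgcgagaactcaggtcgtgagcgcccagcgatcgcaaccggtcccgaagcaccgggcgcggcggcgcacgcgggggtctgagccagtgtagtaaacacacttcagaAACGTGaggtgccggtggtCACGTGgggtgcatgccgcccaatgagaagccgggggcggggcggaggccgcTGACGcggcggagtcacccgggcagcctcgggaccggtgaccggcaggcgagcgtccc
Ciart, chr3:95882179-95882478, minus strand: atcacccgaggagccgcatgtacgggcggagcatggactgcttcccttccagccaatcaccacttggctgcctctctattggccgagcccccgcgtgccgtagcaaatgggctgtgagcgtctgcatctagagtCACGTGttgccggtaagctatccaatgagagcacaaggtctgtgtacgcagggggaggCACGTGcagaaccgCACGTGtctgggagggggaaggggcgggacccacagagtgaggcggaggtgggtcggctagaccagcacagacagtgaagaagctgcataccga
Per3, chr4:151044616-151044915, minus strand: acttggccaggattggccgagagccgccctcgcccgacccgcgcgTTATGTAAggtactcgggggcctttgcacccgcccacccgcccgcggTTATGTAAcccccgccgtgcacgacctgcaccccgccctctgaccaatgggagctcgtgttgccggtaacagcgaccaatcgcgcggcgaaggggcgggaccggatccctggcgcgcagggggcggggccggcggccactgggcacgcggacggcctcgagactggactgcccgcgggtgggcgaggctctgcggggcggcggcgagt

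The second of 2 Arntl windows, printed above, held TAGGTCA at 31 to 37 bases after its start, and the first, which is set on the gene start given below, held no match. The Nfil3 window held TAGGTCA on the opposite strand at -12 to -6. Of all 32851 windows, 2.61% hold that core and 3.98% hold TGGGTCA. Per3 had TTATGTAA at -205 to -198 and again at -158 to -151, a sequence found in 0.938% of all windows, while TTACGTAA is in 0.119%. Cry1 had CACGTG at -60 to -55 and the E'-box on the opposite strand at -79 to -74. Nr1d1 had an E'-box on the opposite strand at -28 to -23. The first of 2 Per1 windows held CACGTG at -166 to -161. Ciart had CACGTG in 3 places, at -116 to -111, -58 to -53 and -44 to -39. Windows not printed held matches too. Among them, Cry2 had an E'-box on the opposite strand at -166 to -161, and Bhlhe41 had CACGTG at -153 to -148. Both Tef windows held CACGTG, and the second Rorb window held an E'-box. The Timeless window held the D-box TTATGTAA at -157 to -150. The Rora window held no match. Whether any match bears on the ratios below was not tested. CACGTG is in 7.15% of all windows, CACGTT in 4.68%, TGACGTCA in 1.79% and TGACG in 20.8%. The windows of Clock, Nr1d2 and Dbp held none of these letters, which speaks for these windows alone.

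Levels are given in CPM, the counts of a gene relative to the size of its library after scaling by the TMM method. All 10 genes passed the minimum mean of 1 CPM, and each was above it in either library alone, with Dbp lowest at 4.43 CPM in Lv_AI662270 and 1.91 CPM in Lv_NC. A range in brackets after a level or ratio is its exact 95% interval and covers counting error only, since reads without molecular identifiers are not independent molecules. A gene was called when its log2 ratio, taken with a pseudocount of 0.5 CPM, was at least 1 in either direction and the interval of the ratio left out 1. Fold values are ratios without the pseudocount. The rule called 2 of the 10 clock genes higher, Nr1d1 and Dbp, and 0 lower. Of all 13268 measured genes it called 5.59% higher and 5.72% lower. At 1.5-fold it called the same 2 higher and Arntl lower, beside 12.9% and 14.3% of all genes, and at 3-fold it called none, beside 1.86% and 1.97%.

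**Figure D1:**
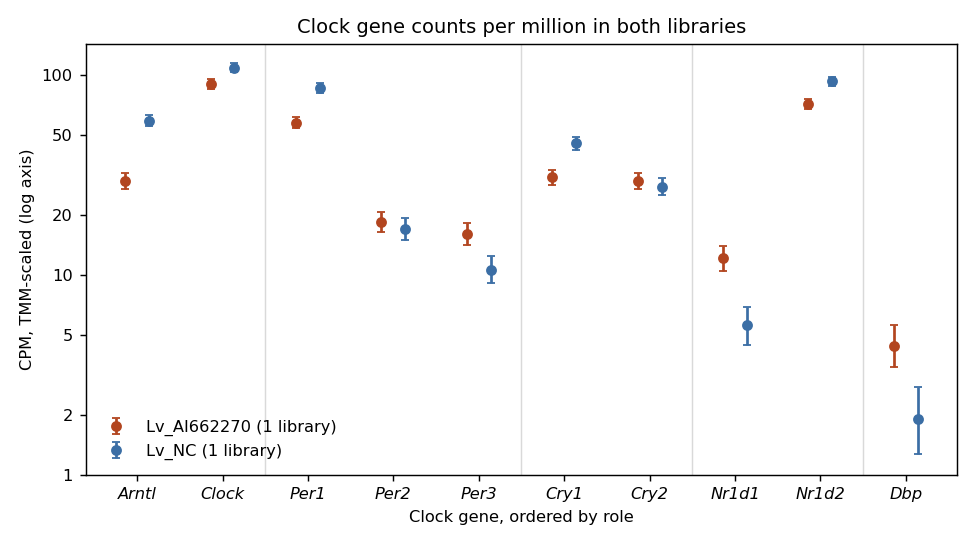
Each point is the TMM-scaled CPM of a clock gene in 1 library on a log axis, with its exact 95% counting interval, Lv_AI662270 to the left of Lv_NC and genes ordered by role. Arntl had 29.6 CPM in Lv_AI662270 and 59.4 CPM in Lv_NC, while Nr1d1 had 12.1 CPM in Lv_AI662270 and 5.59 CPM in Lv_NC.

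Among the activators, Arntl (ENSMUSG00000055116, chromosome 7 from 113207465 to 113314126 in build mm10) had 461 counts in Lv_AI662270 and 903 counts in Lv_NC. These are 29.6 CPM (26.9 to 32.4) in Lv_AI662270 and 59.4 CPM (55.6 to 63.4) in Lv_NC. The ratio of Lv_AI662270 over Lv_NC was 0.498 (0.444 to 0.558), and with the pseudocount its log2 was -0.99, just short of the call. Clock (chromosome 5 from 76209868 to 76304792), which encodes the partner of BMAL1, had 1410 counts in Lv_AI662270 and 1661 counts in Lv_NC. Its ratio was 0.828 (0.771 to 0.890). Both activators were thus below 1 with intervals that leave it out, and Arntl was farther from it. Arntl2, a paralogue of Arntl, had 111 counts in Lv_AI662270 and 72 counts in Lv_NC, a ratio of 1.504 (1.11 to 2.05). Npas2, a paralogue of Clock, had 0 counts in both libraries, where 3 counts would be 0.193 CPM in Lv_AI662270 and 0.197 CPM in Lv_NC.

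The 3 period genes, which encode the scaffold of the repressor complex, differed among themselves. Per1 (chromosome 11 from 69095217 to 69109960), whose promoter also answers to cyclic AMP and glucocorticoids, had 903 counts in Lv_AI662270 and 1312 counts in Lv_NC, a ratio of 0.672 (0.616 to 0.732). Per2 (chromosome 1 from 91415982 to 91459324) had 287 counts in Lv_AI662270 and 259 counts in Lv_NC, and its ratio of 1.08 (0.911 to 1.28) could not be told from 1 at this depth. Per3 (chromosome 4 from 151003652 to 151044665), the gene with the D-boxes printed above, had 250 counts in Lv_AI662270 and 162 counts in Lv_NC, a ratio of 1.51 (1.23 to 1.85). None of the 3 was called, and their log2 ratios with the pseudocount were -0.57 for Per1, 0.11 for Per2 and 0.57 for Per3.

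The cryptochrome genes encode the subunits that silence BMAL1 and CLOCK directly. Cry1 (chromosome 10 from 85131700 to 85185064) had 481 counts in Lv_AI662270 and 693 counts in Lv_NC, a ratio of 0.677 (0.602 to 0.762). Cry2 (chromosome 2 from 92403646 to 92434043) had 462 counts in Lv_AI662270 and 422 counts in Lv_NC, a ratio of 1.07 (0.934 to 1.22) whose interval holds 1.

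The REV-ERB genes stood on opposite sides. Nr1d1 (ENSMUSG00000020889, chromosome 11 from 98767932 to 98775333) had 189 counts in Lv_AI662270 and 85 counts in Lv_NC, which are 12.1 CPM (10.5 to 13.99) in Lv_AI662270 and 5.59 CPM (4.47 to 6.91) in Lv_NC. It was called higher, 2.17-fold (1.67 to 2.84), with a log2 ratio of 1.05. Nr1d2 (chromosome 14 from 18204054 to 18239127), its paralogue with the same binding site, had 1117 counts in Lv_AI662270 and 1419 counts in Lv_NC, a ratio of 0.768 (0.710 to 0.831). Nr1d1 shares 263 exon bases, 8.55% of its own, with Thra, a thyroid hormone receptor gene on the other strand. Thra had 783 counts in Lv_AI662270 and 532 counts in Lv_NC, a ratio of 1.44 (1.28 to 1.61). Whether counting used the strand was not given in the sources used here. Reads from the shared bases therefore cannot be told apart.

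Dbp (ENSMUSG00000059824, chromosome 7 from 45705088 to 45710203), the output factor, had the fewest counts of the 10, with 69 counts in Lv_AI662270 and 29 counts in Lv_NC. Its level was 4.43 CPM (3.45 to 5.604) in Lv_AI662270 and 1.91 CPM (1.28 to 2.74) in Lv_NC. It was called higher, 2.32-fold (1.48 to 3.72), with a log2 ratio of 1.03. Dbp shares 539 exon bases, 18.01% of its own, with Sphk2, a sphingosine kinase gene on the other strand. Sphk2 had 229 counts in Lv_AI662270 and 410 counts in Lv_NC and so lay on the other side of 1, with a ratio of 0.545 (0.462 to 0.642). Of the other clock genes, Cry2 shares 295 exon bases with a noncoding gene of 9 counts in Lv_AI662270 and 6 counts in Lv_NC. Arntl shares 33 bases with an antisense gene of 0 counts in Lv_AI662270 and 2 counts in Lv_NC, and the other 6 share no exon base.

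Taking the 10 genes as a set, 5 had log2 ratios above 0 and 5 below, with a median of -0.09 beside -0.02 for all measured genes. The intervals of 8 left out 1 and those of Per2 and Cry2 did not, beside 67.7% of all measured genes whose intervals left it out. By the authors' deposited table, adjusted p-values under 0.05 were reached by 0 of the 10 genes, and 3, Arntl, Nr1d1 and Dbp, had an unadjusted one under 0.05. The authors' p-values also rest on 1 library per group. The side of 0 went with the read level. The 5 clock genes that averaged 30 CPM or more were below 0, and the 5 that averaged less were above 0. All measured genes leaned the same way. The median log2 ratio was 0.15 for the 3497 genes under 10 CPM, 0.03 for the 2737 from 10 to 30 CPM and -0.06 for the 4533 from 30 to 110 CPM, limits that were set after the values were seen. Under 10 CPM, where Nr1d1 and Dbp lie, 13.7% of genes were called higher and 7.61% lower. At 10 CPM or more, where the other 8 lie, 2.7% were called higher and 5.05% lower. The part of the read level in the ratios of the clock genes was not tested.

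**Figure D2:**
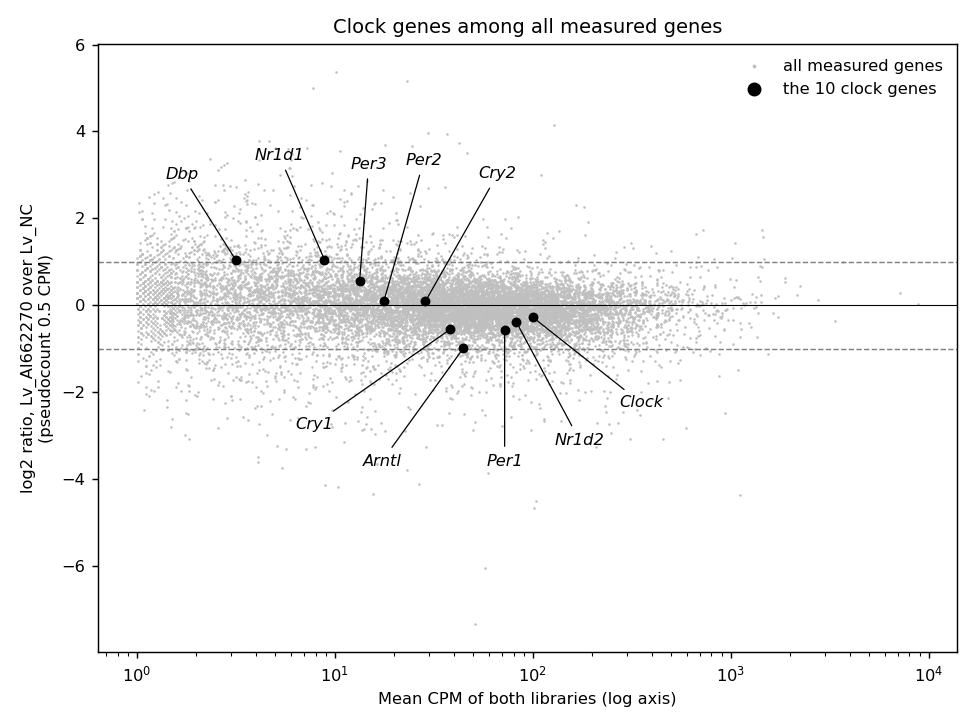
Each grey point is 1 of 13268 measured genes, with its mean CPM over both libraries on a log axis and its log2 ratio of Lv_AI662270 over Lv_NC at a pseudocount of 0.5 CPM. The clock genes in black lie within the cloud, Nr1d1 at 1.05 and Dbp at 1.03 just above the upper dashed line and Arntl at -0.99 just inside the lower one.

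Ratios between clock genes within a library do not depend on how the libraries are scaled. Arntl had 2.44 reads per read of Nr1d1 in Lv_AI662270 and 10.6 in Lv_NC. This balance was 4.35 times lower (3.27 to 5.83) in Lv_AI662270. It restates the ratios of Arntl, the lowest of the clock genes, and of Nr1d1, which was called higher. It does not stand for the activator and repressor genes as groups. Against Nr1d2, the REV-ERB gene with the higher level per kilobase in both libraries, the balance of Arntl was 1.54 times lower (1.34 to 1.77). Against Per2 it was 2.17 times lower (1.76 to 2.67). Arntl had 6.68 reads per read of Dbp in Lv_AI662270 and 31.1 in Lv_NC, 4.66 times lower (2.93 to 7.56). Arntl against its partner Clock was 1.66 times lower (1.453 to 1.90), with 0.327 reads per read in Lv_AI662270 and 0.544 in Lv_NC. In all, 13 balances were computed. The intervals cover counting error only, and no balances of other genes were computed beside them.

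Balances between paralogues were read in the same way. Nr1d1 had 0.169 reads per read of Nr1d2 in Lv_AI662270 and 0.0599 in Lv_NC, 2.82 times higher (2.15 to 3.74). Cry1 against Cry2 was 1.04 in Lv_AI662270 and 1.64 in Lv_NC, 1.58 times lower (1.32 to 1.89). Per1 against Per3 was 3.61 in Lv_AI662270 and 8.10 in Lv_NC, 2.24 times lower (1.80 to 2.80). The 2 balances whose intervals held 1 were those of Dbp with Nr1d1, at 0.365 in Lv_AI662270 and 0.341 in Lv_NC, and of Dbp with Per3, at 0.276 in Lv_AI662270 and 0.179 in Lv_NC. Their ratios of Lv_AI662270 over Lv_NC were 1.07 (0.631 to 1.84) and 1.54 (0.938 to 2.58). Intervals of this width do not show that these genes moved alike.

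**Figure D3:**
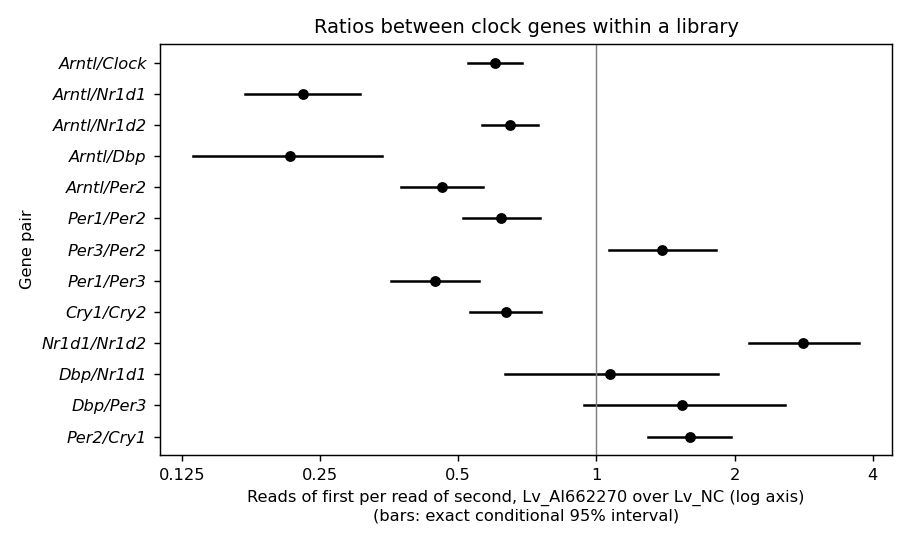
Each point is the reads of the first gene per read of the second in Lv_AI662270, divided by the same quantity in Lv_NC, on a log axis with the exact conditional 95% interval. Arntl against Nr1d1 and against Dbp lie farthest to the left, at 0.230 and 0.215, and Nr1d1 against Nr1d2 farthest to the right, at 2.82.

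Levels of different genes were compared as CPM per kilobase of exon. In both libraries Nr1d2 was highest, at 13.3 CPM per kilobase in Lv_AI662270 and 17.3 in Lv_NC, followed by Per1 and Cry1, whose counting intervals overlap in each library. Dbp was lowest in both, at 1.48 CPM per kilobase in Lv_AI662270 and 0.637 in Lv_NC, but in Lv_AI662270 its interval overlapped that of Per3. The order differed in the middle. Arntl had 3.93 CPM per kilobase (3.58 to 4.31) in Lv_AI662270, where it overlapped Nr1d1 at 3.94 (3.40 to 4.55), and 7.90 (7.39 to 8.43) in Lv_NC, where it overlapped Clock at 7.96 (7.58 to 8.35). Nr1d1 in Lv_NC was at 1.82 CPM per kilobase (1.451 to 2.25), below Per2. Summed over the 10 genes, the level per kilobase was 58.2 in Lv_AI662270 and 72.9 in Lv_NC, and Arntl and Clock together gave 10.5 in Lv_AI662270 and 15.9 in Lv_NC. In bulk RNA, fewer cells at a given stage of the cycle and less RNA per cell cannot be told apart.

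**Figure D4:**
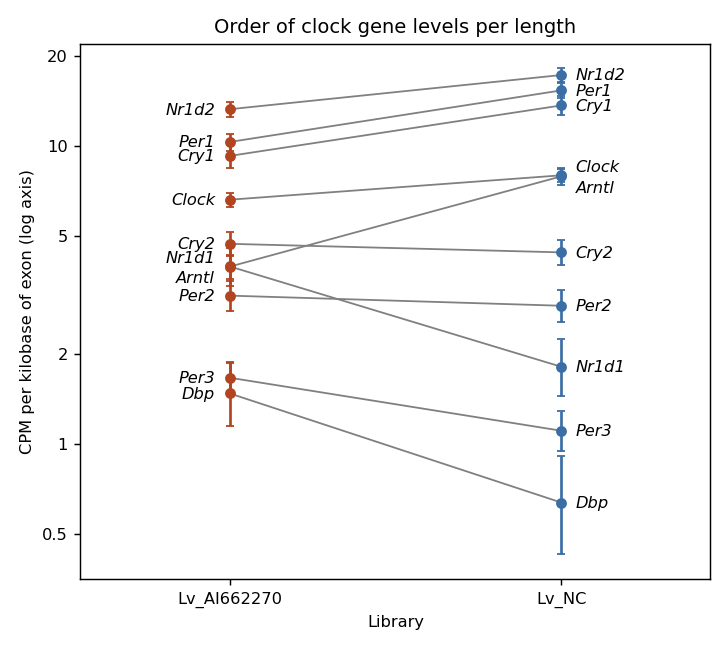
Points are CPM per kilobase of exon on a log axis with exact 95% counting intervals, Lv_AI662270 on the left and Lv_NC on the right, with a line for each clock gene. The lines of Arntl and Nr1d1 start together at 3.93 and 3.94 in Lv_AI662270 and end at 7.90 and 1.82 in Lv_NC.

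Genes that close the loops beside these 10 were listed as paralogues and loop partners. Of 12 listed, 10 were measured, 3 were called higher and 2 lower, with a median log2 ratio of 0.11. Of all measured genes 5.59% were called higher and 5.72% lower. Nfil3, the D-box repressor, had 483 counts in Lv_AI662270 and 2116 counts in Lv_NC and was 4.49-fold lower (4.07 to 4.97). Tef, an activator at D-boxes and close relative of Dbp, had 1275 counts in Lv_AI662270 and 544 counts in Lv_NC and was 2.29-fold higher (2.07 to 2.53). Hlf, the third of these activators, had 21 counts in Lv_AI662270 and 0 counts in Lv_NC, below the level needed to be measured. Set against a floor of 3 counts in Lv_NC, Hlf was 6.83-fold higher, a value that depends on the floor chosen. The lower end of its exact interval was 5.08.

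Rora and Rorb encode ROR receptors, which activate from the sites that REV-ERB proteins repress, and both were called higher. Rora had 122 counts in Lv_AI662270 and 38 counts in Lv_NC and was 3.13-fold higher (2.16 to 4.64). Rorb had 181 counts in Lv_AI662270 and 9 counts in Lv_NC, 19.6-fold higher (10.1 to 43.6). Rora averaged 5.16 CPM and Rorb 6.10 CPM over both libraries. Of all measured genes under 10 CPM, 13.7% were called higher. Ciart, which encodes a repressor of BMAL1 and CLOCK and has the E-boxes printed above, had 261 counts in Lv_AI662270 and 629 counts in Lv_NC and was 2.47-fold lower (2.13 to 2.86). Bhlhe40 and Bhlhe41, which encode E-box repressors, were not called, with ratios of 0.697 (0.656 to 0.741) and 1.32 (1.06 to 1.65). Timeless, whose window holds a D-box as that of Per3 does, was not called either. It had 2211 counts in Lv_AI662270 and 3203 counts in Lv_NC, a ratio of 0.674 (0.638 to 0.711).

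**Figure D5:**
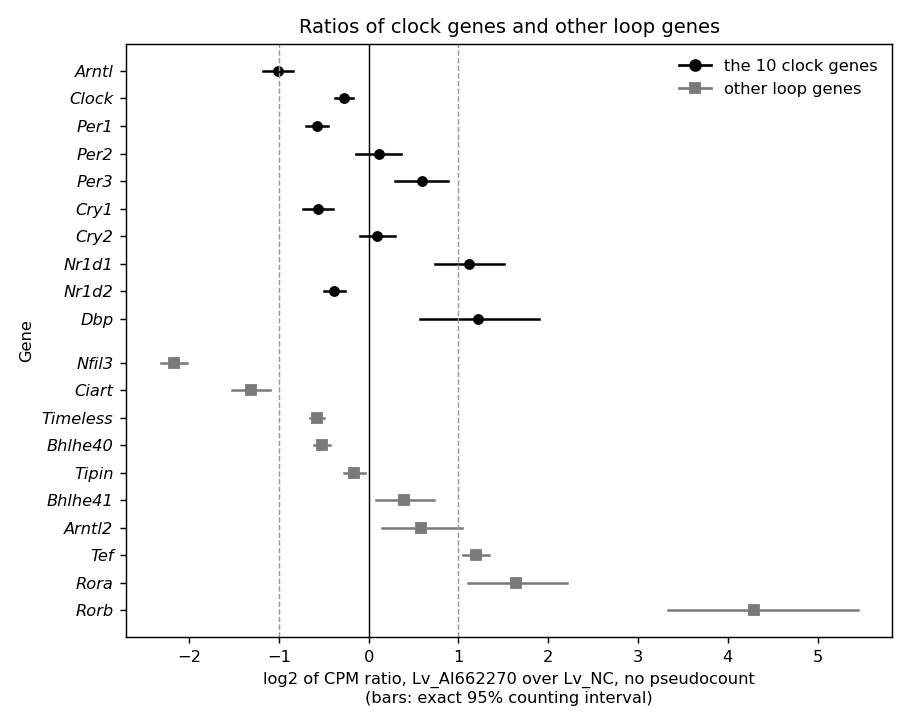
Points are log2 ratios of CPM without a pseudocount, Lv_AI662270 over Lv_NC, with exact 95% counting intervals, for the 10 clock genes (circles) and for loop partners with counts in both libraries (squares). Dashed lines mark 2-fold. Nfil3 lies farthest to the left and Rorb farthest to the right, and the clock genes lie between them.

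Genes for proteins that modify or degrade the clock proteins had ratios within 2-fold, though the interval of Fbxl21 reached 2.98-fold. Of 25 measured kinases, phosphatases and ubiquitin ligases of the pathway 0 were called, with log2 ratios from -0.78 for Csnk1e, a casein kinase that phosphorylates PER, to 0.81 for Fbxl21, and a median of -0.14. The most abundant were Ddb1 at 0.19 and Huwe1 at -0.25. Of all measured genes 5.59% were called higher and 5.72% lower, and of those at 10 CPM or more 2.7% and 5.05%. Of 24 coactivators and corepressors 1 was called lower and 0 higher. It was Ppargc1a, a coactivator of ROR receptors, which had 18 counts in Lv_AI662270 and 48 counts in Lv_NC and was 2.73-fold lower (1.56 to 4.99). Ppargc1a was not called with a pseudocount of 2 CPM, at a minimum of 5 CPM or on FPKM.

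Among 17 measured output genes 2 were called lower and 0 higher, with a median of 0.12. Klf9 was 2.31-fold lower (2.07 to 2.59) and Klf11 2.16-fold lower (1.90 to 2.46), both encoding Kruppel-like factors. With scaling by total counts 1 of these 2 calls remained. Among 18 measured genes that carry signals to the Per1 and Per2 promoters 1 was called lower and 0 higher, with a median of -0.33. It was Atf4, which encodes the stress-responsive factor ATF4 and had 6642 counts in Lv_AI662270 and 20022 counts in Lv_NC, 3.09-fold lower (3.005 to 3.18). Over these lists and the glucocorticoid list together 4 of 104 measured genes were called higher and 8 lower, beside 5.59% higher and 5.72% lower among all measured genes.

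Other values of the libraries bear on these results. AI662270 itself had 241 counts in Lv_AI662270 and 0 counts in Lv_NC. Of 12 mesangial markers 5 were measured, 1 of them called higher and 2 lower, beside 5.59% and 5.72% of all measured genes. Acta2, a smooth muscle actin, had 171 counts in Lv_AI662270 and 12 counts in Lv_NC and was 13.9-fold higher (7.76 to 27.4). Gata3 was 3.12-fold lower (1.96 to 5.11) and Serpine2 2.87-fold lower (1.35 to 6.62). Itga8, Thy1 and Ptn had 0 counts in both, and the list summed to 39.9 CPM in Lv_AI662270 and 22.03 CPM in Lv_NC. The tubule list summed to 222 CPM in Lv_AI662270 and 389 CPM in Lv_NC, mostly from the epithelial genes Epcam and Cdh1, while its members Slc34a1, Umod and Aqp2 had 0 counts in both libraries. The podocyte list summed to 85.4 CPM in Lv_AI662270 and 154 CPM in Lv_NC with Nphs1 at 0. Its Podxl had 42.4 CPM in Lv_AI662270 and 123 CPM in Lv_NC, while Synpo went the other way, with 39.4 and 25.9 CPM. The leukocyte list summed to 14.6 CPM in Lv_AI662270 and 34.4 CPM in Lv_NC, mostly from Csf1r and Cd68, with Adgre1 and Cd3e at 0. The endothelial list summed to 5.90 CPM in Lv_AI662270 and 5.13 CPM in Lv_NC with Tek and Emcn at 0. Of 4 measured tubule genes 2 were called lower, as were 2 of 4 podocyte genes and 1 of 2 leukocyte genes. In these lists 0 were called higher. The part of the marker genes in the clock gene ratios was not tested.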

How the data were processed

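RNA of 2 sublines was sequenced, 1 library per group. CASAVA 1.4, TopHat2 and mm10 are named in the submitters' processing notes. Which counter, annotation release and strandedness were used was not given in the sources used here. The deposited counts are whole reads per gene without normalization, judged from the values. The deposited FPKM values are length-scaled and depth-scaled counts, per the file headers, and served as an alternative. The deposited signal columns, counts rescaled by the authors, were not used. The authors' log2 fold changes were not printed, and of their p-values the text gives only which clock genes were under 0.05. A second deposited table lists the 897 genes with an adjusted p-value under 0.05 and was not used further. Deposited gene lengths and coordinates of the 10 genes equal the exon unions and coordinates of GENCODE M21.

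Libraries were scaled with TMM in edgeR 4.0.16 (R 4.3.3), with factors of 1.03 for Lv_AI662270 and 0.967 for Lv_NC. CPM, log2 ratios, Clopper-Pearson intervals of ratios, Poisson intervals of levels and conditional intervals of gene balances were computed in Python 3.11.15 with scipy 1.17.1. The rule was tested on simulated counts that held counting error only, so the test does not cover variation between cultures. The clock genes and lists were chosen with earlier results of these data known. All 10 clock genes were named. A gene of the loop partner list is not reported here and was left out of that list's counts and median. From each list the text names the called genes, at most 4 by size of log2 ratio where more were called, or, with 0 called, the pair with most reads. Other genes were chosen after their values were seen. The balances were a fixed list of 13. With 2 libraries no gene could be named for a similar pattern. Alternatives used other scaling (DESeq2 1.42.0 size factors, total counts, upper quartiles), pseudocounts, filters and thresholds.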

Additional observations from a re-analysis of the deposited data

How the results depend on the processing

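Every clock gene kept its side of 0 under the other scalings and on FPKM. The other pseudocounts, filters and thresholds could not change the side. Over all settings the log2 ratios ran from -1.003 to -0.889 for Arntl, 0.896 to 1.144 for Nr1d1 and 0.718 to 1.174 for Dbp. The calls lie at the threshold. With a pseudocount of 0.1 CPM Arntl was called at -1.003, so 1 clock gene was lower, and at 1.5-fold it was called at -0.993, again 1 lower. With a pseudocount of 2 CPM Nr1d1 at 0.896 and Dbp at 0.718 lost their calls and 0 were higher. On FPKM they had 0.969 and 0.823 and 0 were higher, and at 3-fold, at 1.05 and 1.03, 0 were higher. A minimum of 5 CPM removed Dbp, which left 1 higher and a median of -0.27 over 9 genes. Of the 104 measured genes of the pathway lists, 11 were called higher and 22 lower at 1.5-fold, beside 12.9% and 14.3% of all measured genes. At 3-fold 1 was called higher and 4 lower, beside 1.86% and 1.97%. Scaling by total counts, DESeq2 size factors or upper quartiles changed no call among the clock genes. It moved the median log2 ratio of all measured genes from -0.016 to between 0.019 and 0.080. All measured genes called higher numbered 742 as reported, 400 with a pseudocount of 2 CPM, 391 at a minimum of 5 CPM and 486 on FPKM. These shifts come from the changed settings, since the libraries were the same. No paired analysis was possible because each group holds 1 library. For the same reason no replicate could be left out, and the depth limits Dbp and Nr1d1 most.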

Other observations

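Genes that answer to glucocorticoids, a signal known to set peripheral clocks, went both ways. Of 10 measured 1 was called higher and 2 lower, with a median log2 ratio of -0.14. Among all measured genes 5.59% were called higher and 5.72% lower. Cebpd, which encodes a C/EBP transcription factor, had 1284 counts in Lv_AI662270 and 496 counts in Lv_NC and was 2.53-fold higher (2.28 to 2.81). Dusp1, a phosphatase of MAP kinases, was 3.89-fold lower (3.63 to 4.16), and Sgk1, a serum- and glucocorticoid-regulated kinase, was 3.40-fold lower (2.76 to 4.22). Pdk4 lay at the threshold, with a log2 ratio of 0.98, and the list held 2 genes called higher under each of the other scalings. Lcn2 lay at the lower threshold, with a log2 ratio of -0.99 from 7812 counts in Lv_AI662270 and 15173 counts in Lv_NC. Fkbp5 and Tsc22d3, common reporters of glucocorticoid action, had log2 ratios of 0.50 and -0.51 and were not called.

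Measured genes next to the 10 clock genes, 1 on each side, were also read. Of these 20 neighbours 1 was called higher and 1 lower, beside 5.59% and 5.72% of all measured genes. Tnfrsf9, which lies 57550 bases from Per3, had 85 counts in Lv_AI662270 and 16 counts in Lv_NC and was 5.18-fold higher (3.02 to 9.48). Car11, which lies 406 bases from Dbp on chromosome 7, had 27 counts in Lv_AI662270 and 70 counts in Lv_NC and was 2.66-fold lower (1.68 to 4.31), on the other side of 1 from Dbp. The neighbours of Arntl, Rassf10 at 250008 bases and Btbd10 at 1500 bases, had ratios of 0.549 (0.386 to 0.774) and 0.717 (0.639 to 0.803). Mterf2, which lies 3673 bases from Cry1, had a ratio of 2.15 (1.46 to 3.23), where Cry1 had 0.677. Vamp2 and Aloxe3 beside Per1 had ratios of 1.65 (1.46 to 1.87) and 1.53 (1.11 to 2.11), where Per1 had 0.672. The median log2 ratio of a whole chromosome lay between -0.14 and 0.11 for the chromosomes that hold the 10 genes.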
